A study of Homo sapiens with 2 samples.

Results

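JARID2 ChIP-seq of MDA-MB-231 was read at 9 genes, the 7 cyclin-dependent kinase (CDK) inhibitor genes CDKN1A, CDKN1B, CDKN1C, CDKN2A, CDKN2B, CDKN2C and CDKN2D together with MTAP and the long non-coding RNA gene CDKN2B-AS1, and over 1 Mb of chromosome band 9p21. The genes were chosen by symbol in the authors' annotated peak list, and the 9p21 window by peak starts on chromosome 9 from 21500000 to 22500000 (hg19). The rule found 4 peaks of 67071, all at 4 of the 9 genes, and 0 peaks in the window. The study holds 2 libraries from untreated MDA-MB-231 cells, an established human triple-negative breast cancer line: 1 JARID2 ChIP made with a polyclonal antibody and 1 input that was not precipitated. Only the peak list of the ChIP library was analysed here, so no value below has a replicate, and no test between conditions can be made. Each peak's tags, fold enrichment and false discovery rate (FDR) are the authors' own values, and the depth of the library is unknown.

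CDK inhibitors hold back the kinases that drive cells from G1 into S phase. The CIP/KIP proteins, encoded by CDKN1A (p21), CDKN1B (p27) and CDKN1C (p57), bind several cyclin-CDK complexes. The INK4 proteins, encoded by CDKN2A (p16), CDKN2B (p15), CDKN2C (p18) and CDKN2D (p19), bind CDK4 and CDK6. CDKN2A also encodes ARF from a separate first exon. CDKN2A and CDKN2B lie together on 9p21 next to MTAP, which encodes a methionine salvage enzyme, and are overlapped by CDKN2B-AS1 (ANRIL). Polycomb complexes repress this locus in many dividing cell types, and JARID2 is an accessory subunit of Polycomb repressive complex 2. MDA-MB-231 is known for loss of CDKN2A.

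All 3 CIP/KIP genes carried a listed JARID2 peak, and so did 1 of the 4 INK4 genes, CDKN2C. CDKN2D had none, and neither did CDKN2A, CDKN2B, MTAP or CDKN2B-AS1. Each of the 4 genes had exactly 1 peak, and each peak lay within 1 kb of a transcription start site (TSS), in the promoter class of the list. A listed peak is weak evidence of binding, since the median FDR of all 67071 peaks was 44.2%. Only 834 of them (1.24%) had an FDR of at most 5%. The FDR was 3.16% at CDKN1A, 31.6% at CDKN1C, 43.6% at CDKN2C and 48.8% at CDKN1B. Of 20037 protein-coding genes named by RefSeq, 33.1% had a promoter peak, 22.3% had a promoter peak within 1 kb and 56.3% had any peak. The 4 genes with a promoter peak among 7 CDK inhibitors, or among the 5 outside 9p21, are too few to be read as a share. Looking up older names of the 9 genes gave the same peaks.

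The upstream bases of 6 start sites are shown, from genes that carried a peak and from genes that did not. The sequences are the 250 bases before a RefSeq start (GRCh38.p14), 5′ to 3′ on the gene's strand. Capitals mark GGGCGG and also CCAAT on either strand. CDKN1A and CDKN1B had a peak within 1 kb of a start listed on hg19, and no peak was given to CDKN2D. CDKN2A and CDKN2B lie in the peak-free stretch described below. Whether the listed starts are the RefSeq starts used here was not established, so a peak need not cover the bases shown.
CDKN1A (chr6:36678464-36678713, plus strand): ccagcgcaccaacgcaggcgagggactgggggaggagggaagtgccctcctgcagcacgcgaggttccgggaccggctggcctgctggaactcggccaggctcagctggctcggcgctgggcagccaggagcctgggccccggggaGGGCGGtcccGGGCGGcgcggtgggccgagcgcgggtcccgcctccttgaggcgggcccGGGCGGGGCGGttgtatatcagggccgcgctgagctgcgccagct
CDKN1B (chr12:12717118-12717367, plus strand): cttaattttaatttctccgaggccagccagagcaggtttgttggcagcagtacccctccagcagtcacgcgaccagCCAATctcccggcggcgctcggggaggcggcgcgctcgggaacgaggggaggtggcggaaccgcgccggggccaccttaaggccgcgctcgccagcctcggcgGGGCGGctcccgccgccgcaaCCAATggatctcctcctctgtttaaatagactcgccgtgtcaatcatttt
CDKN2D (chr19:10568980-10569229, minus strand): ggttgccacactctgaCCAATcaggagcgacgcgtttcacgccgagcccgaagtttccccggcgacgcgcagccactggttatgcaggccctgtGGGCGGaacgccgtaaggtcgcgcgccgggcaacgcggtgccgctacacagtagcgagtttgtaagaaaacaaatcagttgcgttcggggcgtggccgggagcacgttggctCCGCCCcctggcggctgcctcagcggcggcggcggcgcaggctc
CDKN2A, first table entry (chr9:21995325-21995574, minus strand): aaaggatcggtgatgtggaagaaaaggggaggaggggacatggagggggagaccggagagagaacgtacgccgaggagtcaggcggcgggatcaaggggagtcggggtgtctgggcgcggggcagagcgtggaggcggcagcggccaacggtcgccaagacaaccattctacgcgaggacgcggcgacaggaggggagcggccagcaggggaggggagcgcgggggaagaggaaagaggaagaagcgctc
CDKN2A, second table entry (chr9:21974858-21975107, minus strand): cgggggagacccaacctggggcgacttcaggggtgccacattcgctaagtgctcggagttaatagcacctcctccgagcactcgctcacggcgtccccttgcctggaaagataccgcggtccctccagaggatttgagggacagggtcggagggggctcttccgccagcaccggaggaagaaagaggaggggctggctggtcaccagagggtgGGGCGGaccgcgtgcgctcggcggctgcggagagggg
CDKN2B (chr9:22009306-22009555, minus strand): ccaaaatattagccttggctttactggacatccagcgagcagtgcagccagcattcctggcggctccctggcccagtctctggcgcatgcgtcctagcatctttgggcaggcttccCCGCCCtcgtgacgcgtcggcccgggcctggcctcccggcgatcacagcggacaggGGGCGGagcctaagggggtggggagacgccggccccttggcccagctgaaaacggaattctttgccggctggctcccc

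These letters cannot say whether sequence goes with a peak, since CDKN2D is the only gene without a peak that lies outside the peak-free stretch. CDKN1A and CDKN1B each had 27 CpG sites in the 250 bases, CDKN2D had 33, the CDKN2A starts had 24 and 20, and CDKN2B had 18. The median over 35116 RefSeq promoters, which include those of non-coding genes such as CDKN2B-AS1, was 11 (interquartile range 3 to 23). The CDKN2C table entries had 7, 35 and 10 CpG sites, and which of them matches the hg19 peak was not established. The GC share was 76.4% at CDKN1A, 64.4% at CDKN1B, 67.6% at CDKN2D, 66.8% at both CDKN2A starts and 66.4% at CDKN2B. GGGCGG, the core of the GC box, occurred 4 times at CDKN1A, once at CDKN1B, 2 times at CDKN2D and at CDKN2B, and in the second CDKN2A entry only. The CDKN2C entries held it 0, 5 and 1 times, and MTAP and CDKN2B-AS1 2 times each. On either strand 42.6% of all promoters held it. CCAAT was found at CDKN1B, CDKN2D, MTAP and the last CDKN2C entry, against 32.0% of all promoters. The motifs TTTCGCGC and TTTGGCGC, forms of the E2F site, were in none of the 11 member entries, and in 0.439% and 0.550% of all promoters. Matches are counted on both strands with overlaps included. Of the 9 genes, 8 were in the promoter table, and CDKN1C was not. Across protein-coding genes in that table, the 3691 with a listed peak within 1 kb had a median of 23 CpG sites (16 to 30). The other 12152 had 18 (6 to 27). Each gene was read at its entry with most sites, which favours genes with more entries, and the number of entries was not matched.

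CDKN1A, which encodes p21, had the broadest and most tag-rich peak of the group. It covered 2598 bp of chromosome 6 (36645515 to 36648112) and held 110 tags (95% Poisson interval 90.4 to 132.6), with a fold enrichment of 4.66 and an FDR of 3.16%. Of the 7165 promoter peaks within 1 kb, 10 were at least as wide and 14 held at least as many tags, counting this peak. The fold enrichment was not high, since 14.6% of those peaks had a lower one. The peak began 73 bp before the start of the listed transcript, and its summit lay 600 bp inside that transcript. Whether that start is the RefSeq start whose upstream bases are shown above was not established. It was the only 1 of the 4 with an FDR of at most 5%, a limit met by 7.36% of promoter peaks within 1 kb and by 412 of the 1871 such peaks at least 800 bp wide.

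CDKN1C, the imprinted gene that encodes p57, had the highest fold enrichment, 6.83. Its peak on chromosome 11 (2906276 to 2907128) was 853 bp wide and held 24 tags (15.4 to 35.7) with an FDR of 31.6%. It spanned the listed TSS, with the summit 520 bp inside the listed transcript. Of promoter peaks within 1 kb, 70.4% had a lower fold enrichment and 72.7% had fewer tags. This placed it nearer the middle of such peaks in tags than CDKN1A.

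CDKN2C, the INK4 gene that encodes p18, had a peak centred on its TSS. The peak on chromosome 1 (51433937 to 51435058) was 1122 bp wide, with its summit 66 bp before the start. It held 31 tags (21.1 to 44.0), with a fold enrichment of 4.54 and an FDR of 43.6%. Its tag count was above that of 83.3% of promoter peaks within 1 kb, and its fold enrichment above that of 12.4%.

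CDKN1B, which encodes p27, had the weakest peak of the 4 by fold enrichment and by FDR. The peak on chromosome 12 (12871165 to 12872450) was 1286 bp wide and lay wholly inside the transcript, its near edge 371 bp from the TSS as listed and its summit 966 bp in. It held 34 tags (23.5 to 47.5) at a fold enrichment of 3.76 and an FDR of 48.8%. Only 2.08% of promoter peaks within 1 kb had a lower fold enrichment. The tag intervals of CDKN1B, CDKN1C and CDKN2C overlapped one another, and that of CDKN1A lay above all 3. CDKN1A's peak was also the widest. Per 100 bp it held 4.23 tags, against 2.64 at CDKN1B, 2.81 at CDKN1C and 2.76 at CDKN2C.

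**Figure D1:**
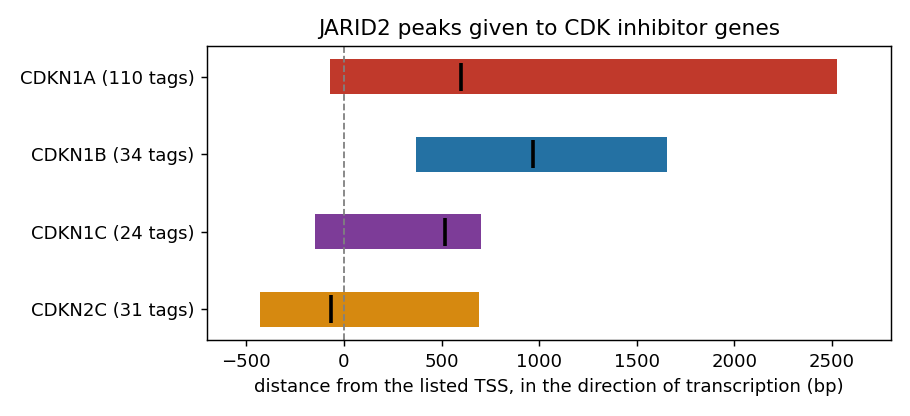
Each bar spans a listed peak by its distance in bp from the TSS of the transcript it was given to, in the direction of transcription, and the black tick is the summit. The CDKN2C summit lies 66 bp before the listed start, and the other 3 lie 520 to 966 bp inside the listed transcript.

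The 4 peaks were wider and held more tags than most promoter peaks within 1 kb, while their fold enrichments ranged from among the lowest of these at CDKN1B to the upper part at CDKN1C. Their median fold enrichment was 4.60 against 5.95 for promoter peaks within 1 kb, and their median tag count was 32.5 against 16. Wide promoter peaks had more tags in general, so each peak was also set beside promoter peaks within 20% of its width. The 34 such peaks at CDKN1A's width had a median of 75.5 tags (interquartile range 66.0 to 96.25) and a median fold enrichment of 5.38, so CDKN1A's 110 tags lay above the upper quartile. Its fold enrichment was within their quartiles (4.26 to 7.59), and their median FDR was 5.71%, not far above its own 3.16%. CDKN1B's 34 tags lay within the quartiles of 754 peaks (32 to 46), and its fold enrichment below their lower quartile of 4.62. CDKN1C (24 tags, quartiles 20 to 29) and CDKN2C (31 tags, quartiles 28 to 40) were also within the range of their width, CDKN1C within the quartiles of fold enrichment too (4.77 to 7.28) and CDKN2C under the lower one (4.66).

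**Figure D2:**
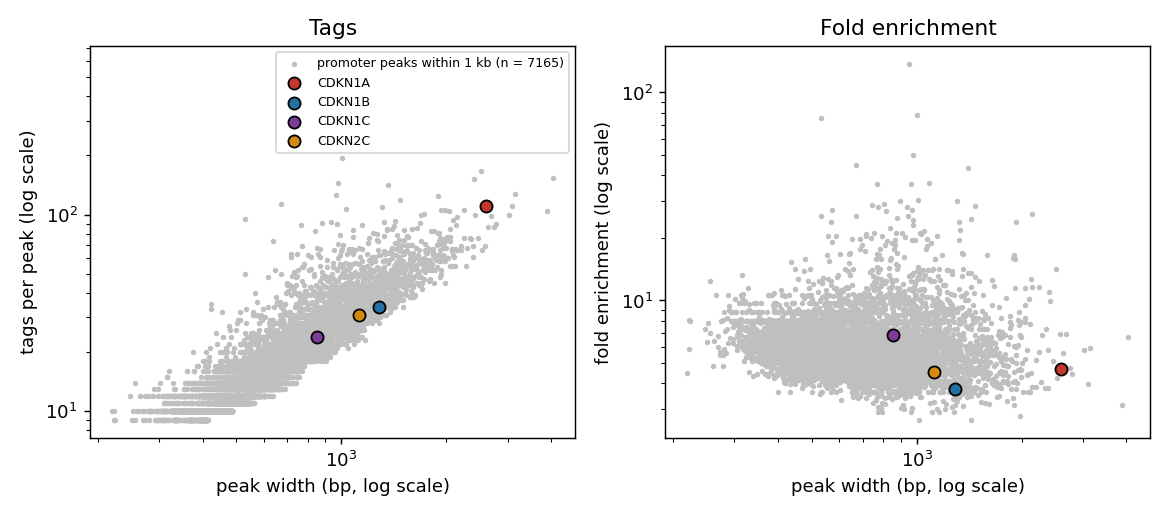
Tags per peak (left) and fold enrichment (right) are plotted against peak width in bp, on log axes, for the 7165 promoter peaks within 1 kb (grey) and the 4 CDK inhibitor peaks (coloured). CDKN1A sits at the wide end with 110 tags, while its fold enrichment of 4.66 is in the lower part of the cloud.

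At stricter limits fewer of the 4 genes were left. CDKN1A alone met an FDR limit of 5% or of 20%, against 3.01% of protein-coding genes with any peak and 2.47% with a promoter peak at 5%, and 8.03% and 5.44% at 20%. CDKN1A and CDKN1C reached −log10 p of 5, as did 18.3% of protein-coding genes with any peak and 9.88% with a promoter peak. None of the 4 was among the top 25% of the list in fold enrichment, which held any peak of 25.7% of genes and a promoter peak of 11.2%.

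The peaks of CDKN1A and CDKN2C lay farther from their nearest listed peaks than those of CDKN1B and CDKN1C did. The nearest listed peaks to that of CDKN1A lay 76.8 kb before it, in the 3′ UTR of the splicing factor gene SRSF3, and 100.3 kb after it, in an intron of CPNE5. CDKN2C's neighbours were 57.0 kb away in FAF1 and 101.1 kb away near MIR4421. For comparison, the median distance between neighbouring peaks in the list was 25.7 kb and the 99th percentile 239.3 kb, so such distances are not rare. CDKN1B had a peak 5.15 kb beyond it at a non-coding transcript and another 20.2 kb before it at GPR19. CDKN1C, in the imprinted domain of KCNQ1, had a peak 12.3 kb away at SLC22A18 and another 47.7 kb away in an intron of KCNQ1. None of these adjacent peaks had an FDR of at most 5%, the lowest being 28.1%.

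CDKN2D, on chromosome 19, had no peak of its own, although both flanking genes did. KRI1, which is next to it in RefSeq gene order, had a peak across its TSS (10676302 to 10676763) with 12 tags, a fold enrichment of 5.80 and an FDR of 48.2%. AP1M2, on the other side, had a peak 4631 bp from its TSS (10701491 to 10702622) with 28 tags, a fold enrichment of 3.84 and an FDR of 41.3%. A peak is given to 1 nearest transcript, so signal near CDKN2D would carry a neighbour's name if that start were nearer. How far the KRI1 and AP1M2 peaks lie from the CDKN2D start on hg19 was not established. Signal under the caller's threshold is not seen in a peak list.

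The 9p21 window held 0 listed peaks, and it lay in one of the longest peak-free stretches of the list. Of 2925 windows of 1 Mb on the autosomes and X, the median held 24 peaks (interquartile range 17 to 30), and 3.62% held none. On chromosome 9, 22.1% of 140 windows held none, against 2.69% of windows on the other chromosomes. Of the 31 empty ones on chromosome 9, 11 lay before its longest peak-free stretch (21.5 Mb, at the centromere) and 0 after it. The rest lay across that stretch. The stretch without a peak across the 9p21 window ran from 20825480 to 26075638, 5.25 Mb, and reached 0.675 Mb before the window and 3.58 Mb past it. It was the fifth longest of 67047 stretches between neighbouring peaks, whose 99th percentile was 239.3 kb. The 4 longer ones were on Y (45.3 Mb), on chromosome 9 (21.5 Mb), on chromosome 1 (21.3 Mb) and on chromosome 16 (11.3 Mb). Why these 4 stretches hold no peak was not tested, and gaps of the assembly were not read. The whole list has only 8 peaks on Y, so the distance there is a weak comparison. Of the 48 stretches over 1 Mb, 9 were on chromosome 9.

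**Figure D3:**
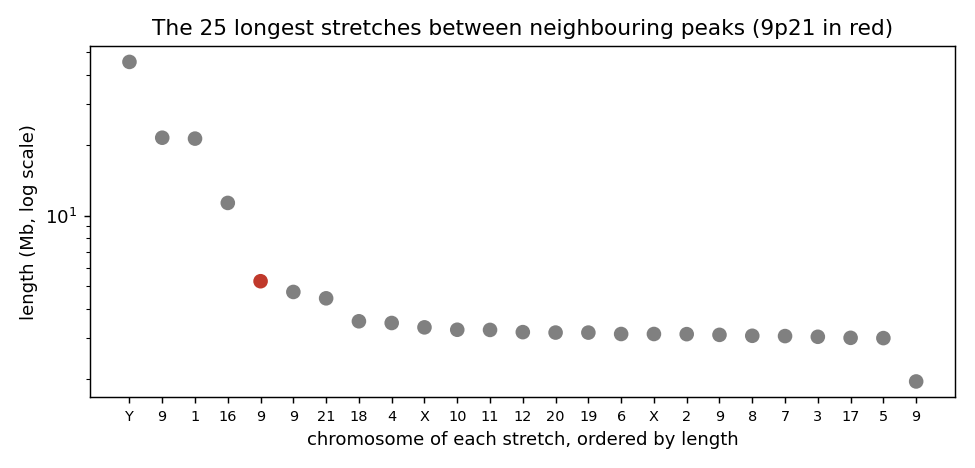
The 25 longest distances between neighbouring peaks are plotted in order of length in Mb on a log axis, each labelled with its chromosome, with the one across 9p21 in red. At 5.25 Mb it is the fifth, after 4 stretches of 11.3 to 45.3 Mb.

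The stretch began inside FOCAD and ended in a gene-poor region. The last peak before it (20824990 to 20825479) was of the promoter class, 1999 bp from an internal FOCAD start, with 11 tags (5.49 to 19.7), a fold enrichment of 5.30 and an FDR of 45.4%. A listed FOCAD transcript runs from 20820293 to 20995947, past that peak. The first peak after it (26075639 to 26076038) was intergenic, with 9 tags (4.12 to 17.1), a fold enrichment of 5.30 and an FDR of 48.0%. It was named for RP11-477G9.1, whose start lies 137730 bp back inside the stretch. In RefSeq order, 25 protein-coding genes lie between FOCAD and CAAP1, the next gene with a peak, and 0 of them had one. They are HACD4, 16 type I interferon genes, KLHL9, MTAP, CDKN2A, CDKN2B, DMRTA1, ELAVL2, IZUMO3 and TUSC1. Among 4197 runs of neighbouring protein-coding genes without a peak, 4 were this long or longer, this one included. A gene whose RefSeq name is not used in the peak list counts as without a peak. The longer runs begin at genes with LOC names, so the rank is uncertain.

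Peaks were fewer before the stretch than after it. In the 1 Mb before the stretch there were 19 peaks and in the 1 Mb after it 31, near the quartiles of all windows (17 to 30). Over 2 Mb the counts were 40 and 60, and over 5 Mb they were 60 and 153. The 5 Mb before it include another peak-free stretch of 1.96 Mb (16121778 to 18081608). The median tags per peak were 11 before and 12 after over 5 Mb, against 13 on chromosome 9 and 12 in the whole list, and the median fold enrichments were 6.18 and 5.95. The medians of tags and fold enrichment on both sides were close to those of the whole list. Every listed peak held at least 9 tags, and the quartiles of the whole list were 10 and 16. Such medians have little room to differ, so they do not show that signal on either side was usual. The number of peaks was higher after the stretch than before it.

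Other parts of 9p were also sparse. The 3 windows from 0.5 to 3.5 Mb held 25 to 32 peaks each. The next 14, from 3.5 to 17.5 Mb, held 0 to 7, a mean of 2.14 per Mb, with 5 of them empty. Within them a further stretch of 4.72 Mb without a peak (8980058 to 13704345) was the sixth longest of the list. Counts were 10 to 21 in the 3 windows from 17.5 to 20.5 Mb, 0 in the 4 from 21.5 to 25.5 Mb and 15 to 37 in the 13 from 26.5 to 39.5 Mb. Past the 21.5 Mb stretch at the centromere, 0 of 74 windows were empty, with a median of 28 peaks. On the near side of it, 11 of 44 were empty. A peak list gives no reading of DNA copy number, and values of the input library were not analysed here. Missing DNA, DNA at low copy number and DNA without JARID2 signal therefore cannot be told apart, and the 0 at CDKN2A, CDKN2B, MTAP and CDKN2B-AS1 says nothing of JARID2 binding to these promoters where the DNA is present.

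**Figure D4:**
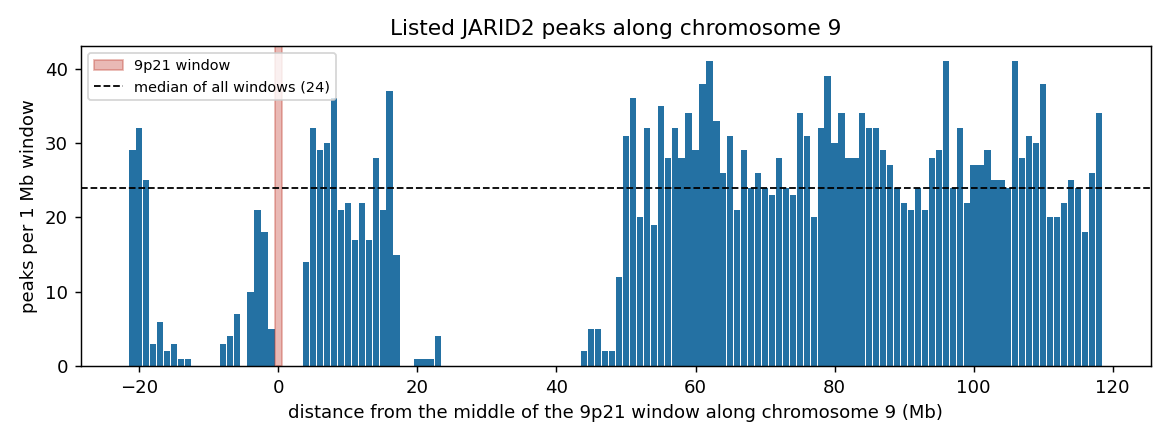
Bars give the number of listed peaks in each 1 Mb window of chromosome 9, by distance in Mb from the middle of the 9p21 window (red band), with the median of all windows, 24, as a dashed line. No bar stands in the 9p21 window or the 3 after it, and from 5 Mb on the windows hold 15 to 37 peaks until the sparse region near the centromere.

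In 5 lists of cell cycle genes and regulators of the INK4 locus, 20 of 53 genes had promoter peaks. Of these genes, 2 had a promoter peak at an FDR of at most 5%. The shares of all protein-coding genes were 33.1% and 2.47%. Of the cyclins and CDKs of G1 and S phase 3 of 10 had one: the D cyclin gene CCND2 (fold enrichment 10.50, 18 tags, FDR 15.4%), CDK6, a kinase that INK4 proteins bind (7.04, FDR 37.3%), and CCNA1 (4.85, FDR 40.6%). CDK4 and CDK2 had no peak, and CCND1 had 2 peaks outside promoters. The list of RB family, E2F and E2F partner genes had 6 of 13. Its E2F6 peak reached 13.99 with an FDR of 0, and that of RBL1, which encodes p107, reached 6.61 with 71 tags and an FDR of 0.270%. RB1 itself had 4.96 and an FDR of 44.1%, RBL2 and E2F2 5.30 each.

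In the other lists no promoter peak reached an FDR of 5%. Mitotic cyclins and regulators of CDK1 had 4 of 9, with CCNB2 at 5.95, CDC25B at 5.66, CDC25A at 5.43 and PKMYT1 at 5.30, each at an FDR above 40%. Genes of CDK inhibitor degradation and CDK activation had 3 of 10, namely the ubiquitin ligase gene FBXW7 (5.99), CKS1B (5.56) and SKP2 (4.56), the last 2 being parts of the ligase that degrades p27. Polycomb and demethylase genes that regulate the INK4 locus had 4 of 11, namely RNF2 (6.82), KDM2B (6.18), PCGF2 (5.72, FDR 12.4%) and CBX2 (4.94, FDR 37.2%). The list of 9p21 genes and their flanks had 1 of 18, FOCAD at 7.28 with an FDR of 40.9%.

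**Figure D5:**
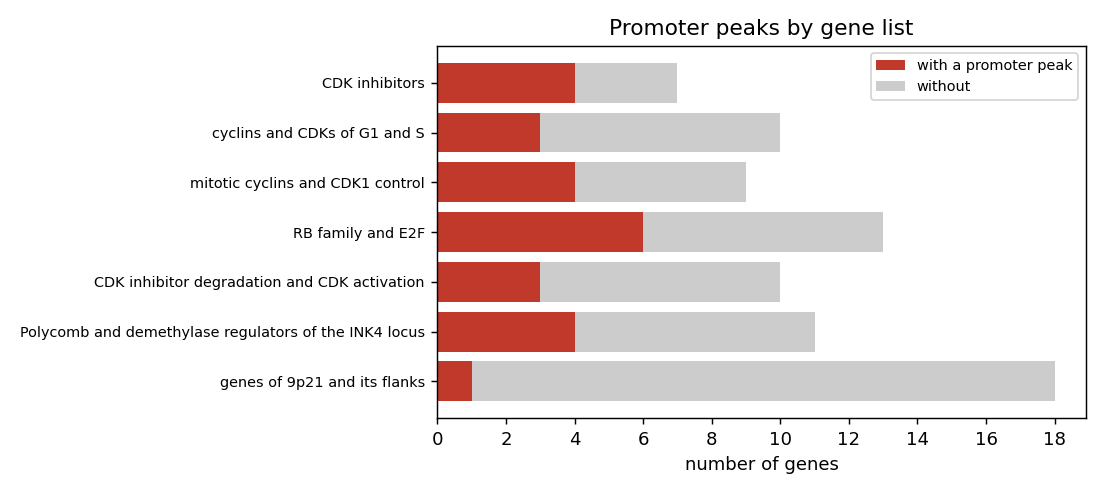
Bars give the number of genes in each list with (red) and without (grey) a promoter peak. The CDK inhibitors had 4 of 7, the lists ranged from 3 of 10 to 6 of 13, and the 9p21 genes and their flanks, which include non-coding genes, had 1 of 18.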

How the data were processed

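The authors' annotated peak list of 1 JARID2 ChIP library was read as deposited. The submitters' processing notes name the hg19 build and the tools Bowtie 0.12.8, bcl2fastq, ChIPseeker, MACS and MACS2. Their settings and order: not given in the sources used here. Per the file headers, each peak has a deposited tag count, a deposited fold enrichment and a deposited FDR in percent. The fold enrichment was read as a linear ratio over the caller's background, which the headers do not state. A deposited score whose header was lost, 30 or more in every peak, was read as −log10 p times 10. The peaks held 1000395 tags in all.

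Members and lists were chosen with earlier results of these data known. Symbols were matched to RefSeq (GRCh38.p14) by symbol or a synonym of 1 gene, with no coordinates converted. Windows of 1 Mb started at 0.5 Mb. No test was run, since there is no replicate. Tag intervals are exact 95% Poisson intervals, which treat tags as independent. They leave out variation between libraries, and they are too narrow if the tags include copies made by PCR. Named genes were the members, the flanking peaks and, per list, up to 4 genes with the highest promoter fold enrichment; the peaks adjacent to member peaks, the genes flanking CDKN2D, and CDK2, CDK4, CCND1 and RB1 were added after their values were seen. Window and stretch counting was checked on simulated peaks. Python 3.11.15, pandas 2.3.3 and scipy 1.17.1 were used. Some genes of the lists are not reported here.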

Additional observations from a re-analysis of the deposited data

How the results depend on the processing

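The 4 member genes with a peak, and the 4 with a promoter peak, became 1 each at an FDR of at most 5% or 20% (CDKN1A), 2 each at −log10 p of at least 5 (CDKN1A and CDKN1C) and 0 each when the list was limited to its top 25% in fold enrichment. The threshold there is 6.85, just above CDKN1C's 6.83. A promoter reach of 1 kb left 4 genes and the fold enrichment of each. The 9p21 window held 0 peaks also with any overlap counted and from 21 to 23 Mb; an FDR limit of 20%, −log10 p of at least 5 and merging of peaks can only leave such a count at 0. The stretch across it was 5.25 Mb with peaks merged, 6.09 Mb at −log10 p of at least 5, where it was the tenth longest, and 5.44 Mb in the top 25% by fold enrichment, where it was the fourth; fewer peaks lengthen it by construction. With 1 library and unknown depth, a missing peak means only that none passed the authors' threshold.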
